A study of Mus musculus with 4 samples.

Results

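CC chemokines are small secreted proteins, named for a pair of adjacent cysteines near the amino terminus, that attract leukocytes through receptors of the G protein–coupled class. Many cells, tumor cells included, make them when NF–κB or interferon regulatory factors are activated. Ccl2 and Ccl7 act mainly on monocytes through Ccr2, Ccl3, Ccl4 and Ccl5 act on T cells, macrophages and other cells, Ccl9 acts through Ccr1, Ccl17 attracts T cells through Ccr4, and Ccl20 attracts Ccr6–bearing cells.

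The 8 genes described here, Ccl2, Ccl3, Ccl4, Ccl5, Ccl7, Ccl9, Ccl17 and Ccl20, were found by symbol among 49585 genes, and are 8 of 23 CC chemokine genes matched in the table (24 symbols were looked up). They were named with the values of these same libraries known, so their levels and fold changes are a description and carry no test. The libraries come from 4T1–HM and 4T1–LM cells, a pair of single–cell clones of the murine 4T1 triple–negative breast cancer line, highly metastatic and less so. Each clone was grown for 48 h with deferasirox (DFX), an iron chelator, at 50 μmol/L, or with its solvent DMSO alone, which gives 4 groups, HM_Ctrl, HM_DFX, LM_Ctrl and LM_DFX, with 1 library each. Each clone is 1 line derived from 1 cell, and all groups share the parental line and the solvent.

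Values are FPKM, fragments (read pairs) scaled to gene length and to the fragments of the library, as the authors deposited them. A fold change on the log2 scale is the log2 of the ratio of FPKM + 1, a scale that understates the change of low genes, and calls were made at 2-fold on that scale. Expressed genes (12669) were those that reached an FPKM of 1 in any library. Whole fragments could be recovered from the FPKM, out of totals between 14363065 in HM_DFX and 21883855 in LM_DFX, and, divided by the total of their library (depth-scaled fragments), gave the folds with 95% intervals below. These intervals cover counting error only and say nothing of the variation between cultures, which 1 library per group cannot show. The median log2 fold change of all expressed genes was -0.10 in HM_DFX against HM_Ctrl and -0.04 in LM_DFX against LM_Ctrl. Scaling by the median ratio moved the first to 0.00, and changes of that size are within this shift. In bulk RNA, more cells that express a gene and more RNA per cell cannot be told apart.

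Of the 8 genes, Ccl2, Ccl4, Ccl5 and Ccl20 passed the filter on low values, and Ccl3, Ccl7, Ccl9 and Ccl17 stayed under an FPKM of 1 in all 4 libraries. Ccl4 passed it only through the DFX libraries, and Ccl20 only through the HM libraries. Ccl4 and Ccl5 were at least 2-fold higher with DFX in both clones, and none of the 8 was at least 2-fold lower. Over all expressed genes, 6.93% were at least 2-fold higher and 12.4% lower in HM_DFX against HM_Ctrl, and 7.09% were higher and 8.72% lower in LM_DFX against LM_Ctrl. In HM these were 878 and 1568 genes, and 1128 and 1277 under median–ratio scaling. Nothing is read from the counts beside these shares, since the genes were chosen on these contrasts.

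**Figure D1:**
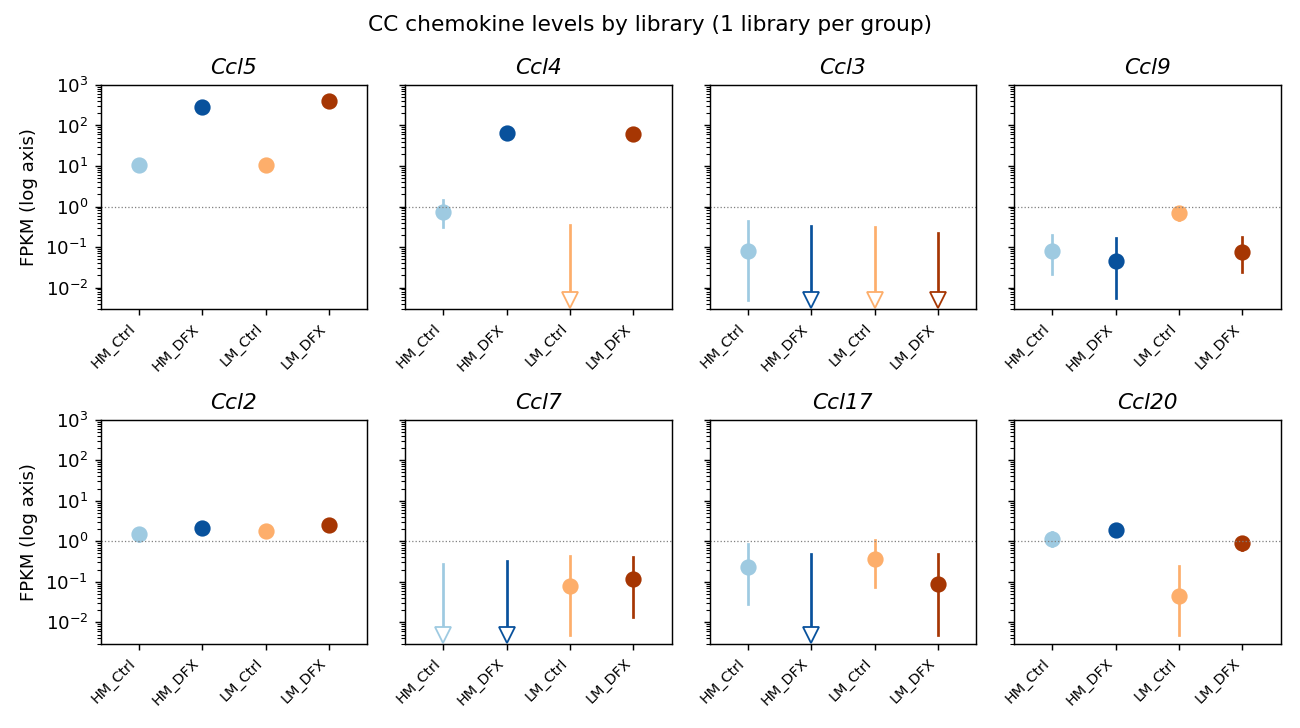
FPKM of the 8 CC chemokines (log axis) in the 4 libraries, 1 panel per gene. Points are the deposited values, vertical lines are exact 95% Poisson intervals for counting error, cut at the bottom of the panel where they reach lower, open triangles mark a value of 0, and the dotted line is an FPKM of 1. Ccl5 and Ccl4 stand high in both DFX libraries, Ccl2 lies between 1.52 and 2.57 throughout, and Ccl3, Ccl7, Ccl9 and Ccl17 stay under the dotted line.

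Ccl5 (ENSMUSG00000035042, minus strand of chromosome 11 from 83525778 to 83530518 of mm10) encodes RANTES, which attracts T cells and monocytes. Its FPKM was 10.7 in HM_Ctrl against 278 in HM_DFX, and 10.7 in LM_Ctrl against 394 in LM_DFX, from 172, 3838, 162 and 8274 fragments. It was the most abundant CC chemokine per length in every library, and both DFX libraries stood far above both controls. The depth-scaled fragments were 26.0-fold higher with DFX in HM (interval 22.3 to 30.5) and 36.7-fold higher in LM (interval 31.4 to 43.2), with log2 fold changes of 4.58 and 5.07. Without the drug a difference between the clones was not detectable at this depth, with a ratio of HM_Ctrl to LM_Ctrl of 0.997 (interval 0.800 to 1.24). With the drug the level in LM_DFX was 1.41-fold that in HM_DFX (interval 1.36 to 1.47), a gap beyond counting error that was under the 2-fold threshold. Among the 12669 expressed genes ordered by FPKM, Ccl5 stood at position 5270 in HM_Ctrl and 149 in HM_DFX, and at 5150 in LM_Ctrl and 117 in LM_DFX.

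Ccl4 (ENSMUSG00000018930, plus strand of chromosome 11 from 83662584 to 83664683) encodes macrophage inflammatory protein 1β, which also attracts T cells and monocytes. Its FPKM was 0.724 in HM_Ctrl and 66.6 in HM_DFX, from 8 and 631 fragments, and 0 in LM_Ctrl and 61.2 in LM_DFX, from 0 and 884 fragments. Ccl4 was thus near or at 0 in both controls and well expressed in both treated libraries. In HM the depth-scaled fragments of Ccl4 were 92.0-fold higher with DFX (interval 46.4 to 214). In LM they were at least 212-fold higher, taking 3 fragments as the limit that a count of 0 in LM_Ctrl allows. The log2 fold changes, 5.29 in HM and 5.96 in LM, were the highest of the 12669 expressed genes in each clone, and Ccl5 ranked at position 3 in HM and 7 in LM. For Ccl4 the treated clones were within counting error of each other, with a ratio of HM_DFX to LM_DFX of 1.09 (interval 0.980 to 1.21). HM_Ctrl held 8 fragments and LM_Ctrl 0, which is at least 2.51-fold higher in HM_Ctrl in depth-scaled fragments by the same limit of 3 fragments. The intervals of the FPKM were 0.313 to 1.43 and 0 to 0.355. On FPKM + 1 the log2 value of 0.79 was not past the threshold.

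**Figure D2:**
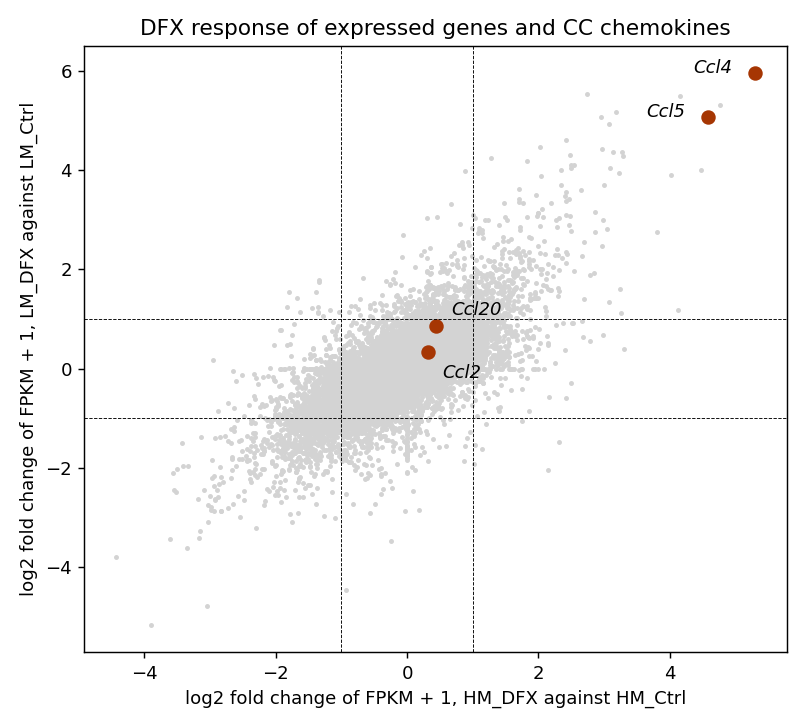
Log2 fold change of FPKM + 1 with DFX in LM (vertical axis) against that in HM (horizontal axis) for the 12669 expressed genes (grey points) and the 4 expressed CC chemokines (labelled points). Dashed lines mark 2-fold. Ccl4 (5.29 and 5.96) and Ccl5 (4.58 and 5.07) lie at the upper right, while Ccl20 and Ccl2 lie inside the dashed lines.

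Together Ccl4 and Ccl5 made up 74.4% of the FPKM summed over the 23 CC chemokines in HM_Ctrl and 98.3% in HM_DFX. In LM the shares were 73.9% and 98.9%. The summed FPKM of the family went from 15.3 to 351 in HM and from 14.5 to 460 in LM, and Ccl5 alone gave 79.4% of it in HM_DFX and 85.6% in LM_DFX. Ccl5 exceeded Ccl4 by 4.18 times in FPKM in HM_DFX and by 6.43 times in LM_DFX. The 31-base words of Ccl4 occur in no other gene of GENCODE release M21, and 0.539% of those of Ccl5 do, so few reads of either could be split with another gene.

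Ccl5 and Ccl4 lie in 1 cluster of chromosome 11, with their starts 132 kb apart and Ccl9, Ccl6 and Ccl3 between them. The genes between them did not share the change. Ccl3 (ENSMUSG00000000982, minus strand from 83647844 to 83649355), which encodes macrophage inflammatory protein 1α and starts only 13.2 kb from Ccl4 on the opposite strand, had 1 fragment in HM_Ctrl and 0 in the other 3 libraries. Its 0 in HM_DFX and in LM_DFX allows an FPKM of up to 0.273 and 0.179 (3 fragments), against 66.6 and 61.2 for Ccl4. Ccl9 (ENSMUSG00000019122, minus strand from 83572919 to 83578636), a Ccr1 ligand of myeloid cells, showed an FPKM of 0.0784 in HM_Ctrl against 0.0457 in HM_DFX, and 0.689 in LM_Ctrl against 0.0750 in LM_DFX, from 4, 2, 33 and 5 fragments. It was highest in LM_Ctrl, 8.78-fold above HM_Ctrl (interval 3.12 to 34.1) and 9.18-fold above LM_DFX (interval 3.56 to 30.1) in depth-scaled fragments, and these values both rest on the LM_Ctrl library. Of the 31-base words of Ccl9, 3.98% occur in another gene. Ccl6, another myeloid chemokine between them, showed an FPKM of at most 0.102.

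Beyond the ends of the cluster, 2 further genes within 50 kb were expressed, and they are named after their values were seen. Heatr9, whose start is 8.34 kb from that of Ccl5 on the same strand, showed an FPKM of 0.318 in HM_Ctrl against 5.16 in HM_DFX, and 0.0339 in LM_Ctrl against 2.78 in LM_DFX, with log2 fold changes of 2.22 and 1.87. Heatr9 passed the filter only through the DFX libraries. Taf15, an RNA–binding protein gene on the far side of Heatr9, was high in all 4 libraries (FPKM from 91.4 to 141) and under the threshold in both clones. On the other side, Wfdc17 was at 0 in all 4 libraries and Wfdc18 reached an FPKM of 0.0571. Values at least 2-fold higher with DFX were therefore found at both ends of the CC chemokine cluster and at Heatr9, with low values in the middle.

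**Figure D3:**
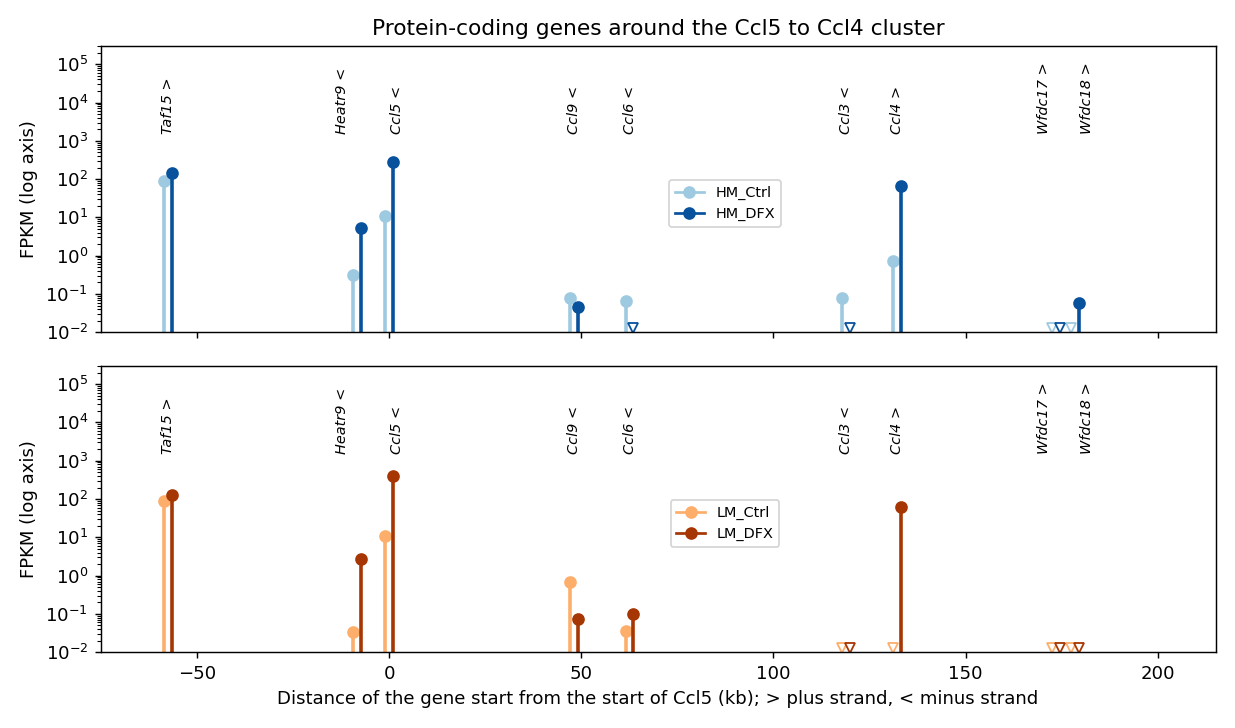
FPKM (log axis) of protein–coding genes within 50 kb of the Ccl5 to Ccl4 cluster, placed by the distance of their start from the start of Ccl5, for HM (top) and LM (bottom). Rpl9-ps1, at 0 in all 4 libraries, is left out. Pale stems are the DMSO libraries, dark stems the DFX libraries, and open triangles a value of 0. Ccl5 and Ccl4 have tall dark stems in both clones, and Taf15 has tall stems in all 4 libraries. Heatr9 reaches 5.16 in HM_DFX and 2.78 in LM_DFX, while Ccl9, Ccl6 and Ccl3 stay under an FPKM of 1.

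Ccl2 and Ccl7 form a second pair on chromosome 11, with starts 10.1 kb apart. Ccl2 (ENSMUSG00000035385, plus strand from 82035571 to 82037453) encodes monocyte chemoattractant protein 1. Its FPKM was 1.52 in HM_Ctrl against 2.14 in HM_DFX, and 1.84 in LM_Ctrl against 2.57 in LM_DFX, from 29, 35, 33 and 64 fragments. The ratio with DFX was 1.41 in HM (interval 0.836 to 2.39) and 1.39 in LM (interval 0.902 to 2.19), so a difference was not detectable at this depth in either clone, and the intervals hold changes up to those bounds. The clones did not differ detectably either, at 0.826 without the drug (interval 0.484 to 1.40) and 0.833 with it (interval 0.535 to 1.28). The gene Gm17268 overlaps Ccl2 on the opposite strand and was at 0 in all 4 libraries. Ccl7 (ENSMUSG00000035373, plus strand from 82045712 to 82047525), which encodes monocyte chemoattractant protein 3, had 0 fragments in both HM libraries, 1 in LM_Ctrl and 2 in LM_DFX, too few for any comparison.

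Ccl20 (ENSMUSG00000026166, plus strand of chromosome 1 from 83116766 to 83119167) encodes the ligand of Ccr6. Its FPKM was 1.13 in HM_Ctrl against 1.91 in HM_DFX, and 0.0447 in LM_Ctrl against 0.900 in LM_DFX, from 27, 39, 1 and 28 fragments. The LM_Ctrl library was the low one, and the other 3 lay within an FPKM of 0.900 to 1.91. Between the untreated clones the log2 fold change was 1.03, just past the threshold, and the depth-scaled fragments were 25.4-fold higher in HM_Ctrl with an interval from 4.18 to 1038, since LM_Ctrl held 1 fragment. At least 2-fold higher values in HM_Ctrl than in LM_Ctrl were found for 3.65% of all expressed genes and lower ones for 3.15%, and Ccl20 was the only 1 of the 8 called there. With DFX the depth-scaled fragments were 1.68-fold higher in HM (interval 1.00 to 2.86) and 20.1-fold higher in LM (interval 3.33 to 823), and neither passed 2-fold on FPKM + 1 (log2 values of 0.45 and 0.86). The LM value and the value between the untreated clones share the 1 fragment of LM_Ctrl. Between the treated clones Ccl20 was 2.12-fold higher in HM_DFX (interval 1.27 to 3.58), with a log2 value of 0.62.

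Ccl17 (ENSMUSG00000031780, plus strand of chromosome 8 from 94810453 to 94812036), a Ccr4 ligand made by dendritic cells, had 2 fragments in HM_Ctrl against 0 in HM_DFX, 3 in LM_Ctrl and 1 in LM_DFX. These counts allow no comparison. Of the expressed genes within 50 kb of it, named after their values were seen, Cx3cl1, a membrane–bound chemokine of another class, was called lower with DFX in both clones (log2 values of -1.49 and -1.10), Coq9 was called higher in both (1.01 and 1.32), Ciapin1 in HM (1.10, with 0.65 in LM), and Polr2c in neither (0.16 and 0.61).

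Among the 8 genes in order of FPKM, HM_Ctrl had Ccl5 first, apart from the rest, and then Ccl2, Ccl20 and Ccl4. The intervals of Ccl2, Ccl20 and Ccl4 all overlapped each other. In HM_DFX the order of the 8 began with Ccl5, Ccl4, Ccl2 and Ccl20, where the intervals of Ccl2 and Ccl20 overlapped. In LM_Ctrl Ccl5 was followed, of the 8, by Ccl2 (interval 1.27 to 2.59) and Ccl9 (interval 0.474 to 0.967), which did not overlap. In LM_DFX Ccl5 and Ccl4 were followed, of the 8, by Ccl2 (interval 1.98 to 3.28) and Ccl20 (interval 0.598 to 1.30), which did not overlap.

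Each comparison between clones shares its libraries with the DFX comparisons. The difference between the clones in the DFX response was read for the same genes as the log2 fold change in HM minus that in LM. It was -0.67 for Ccl4, -0.50 for Ccl5, -0.42 for Ccl20 and -0.01 for Ccl2, and it was not tested. None reached 2-fold, which 3.52% of expressed genes did with a higher and 5.38% with a lower value in HM. Between the treated clones, HM_DFX against LM_DFX, none of the 8 was called, where 3.31% of expressed genes were at least 2-fold higher and 5.05% lower.

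Sequences upstream of 4 of the 8 genes (Ccl3, Ccl9, Ccl17 and Ccl20) were matched in the RefSeq promoter table of build GRCm38.p6, and Ccl2, Ccl4, Ccl5 and Ccl7 were not matched. Each promoter of 300 bases, 250 before the start and 50 after it, was searched on both strands for 4 patterns. They were the NF–κB consensus, the AP–1-like pattern TGANTCA (N being any base), the hypoxia response core ACGTG and the interferon–stimulated response core (a pair of GAAA runs with NN between them). The NF–κB consensus was in the promoters of Ccl20 and Ccl9, and in 8.46% of all 32851 promoters. The AP–1-like pattern was in that of Ccl9, as TGAATCA, and with any central base in 7.81% of all promoters. None of the 4 held the hypoxia response core, which 19.6% of promoters hold, or the interferon–stimulated response core, which 3.44% hold. A match is a run of letters and not a shown binding site. The 150 bases before the start are given 5′ to 3′ on the strand of the gene for Ccl20, Ccl9 and Ccl3. Ccl20 had 1 fragment in LM_Ctrl and 28 in LM_DFX and was not called with DFX. Ccl9 and Ccl3 lie between Ccl5 and Ccl4 and stayed under an FPKM of 1, with Ccl9 lower in LM_DFX (5 fragments) than in LM_Ctrl (33 fragments). The stretches are chr1:83116616-83116765 (plus strand), chr11:83578637-83578786 (minus strand) and chr11:83649379-83649528 (minus strand). For Ccl3 the start is that of RefSeq, which lies upstream of the start at 83649355 given above. Capitals mark matches. For Ccl20 this is the NF–κB consensus from 80 to 71 bases before the start. For Ccl9 they are the AP–1-like pattern from 53 to 47 bases and the NF–κB consensus from 35 to 26 bases before the start. Both NF–κB matches are on the opposite strand.
Ccl20: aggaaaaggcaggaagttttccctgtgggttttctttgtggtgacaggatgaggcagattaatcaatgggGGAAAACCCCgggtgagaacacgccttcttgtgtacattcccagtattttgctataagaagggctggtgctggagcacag
Ccl9: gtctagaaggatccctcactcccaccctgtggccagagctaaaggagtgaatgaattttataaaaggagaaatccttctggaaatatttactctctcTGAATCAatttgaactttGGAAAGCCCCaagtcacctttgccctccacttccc
Ccl3: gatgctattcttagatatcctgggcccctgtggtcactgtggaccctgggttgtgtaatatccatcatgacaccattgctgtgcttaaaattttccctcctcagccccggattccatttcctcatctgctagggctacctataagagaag

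Genes whose pattern over the 4 libraries was nearest to that of a CC chemokine were found by the Euclidean distance between log2(FPKM + 1) values centred over the libraries. For Ccl5 they were Krt16 (distance 0.42), a keratin gene, Cxcl10 (0.76), a chemokine of the CXC class, and Usp18 (1.05), which restrains interferon signaling. Krt16 (0.68) and Cxcl10 (0.87) were also the nearest to Ccl4, before Csrnp1 (1.51), and Ccl5 itself lay at 1.07 from Ccl4. Cxcl10 showed an FPKM of 3.39 in HM_Ctrl against 77.6 in HM_DFX, and 1.13 in LM_Ctrl against 95.3 in LM_DFX. Krt16 went from 2.14 to 84.7 in HM and from 1.42 to 95.4 in LM, and since 51.9% of its 31-base words occur in another gene its values are uncertain. Near Ccl20 were Irf2bp2 (0.05), Kif13b (0.12) and Tada3 (0.13), and near Ccl2 the pseudogenes 2700099C18Rik (0.02) and Gm4604 (0.03) and the gene Gucd1 (0.03). Of the 31-base words of 2700099C18Rik, Gm4604, Gucd1 and Irf2bp2, 21.1%, 70.3%, 16.8% and 20.4% occur in another gene, so these are uncertain too, and for Tada3 the share was 7.97%. For Ccl20 and Ccl2, at most 1.91 and 2.57 in FPKM, the scale of FPKM + 1 understates the change, so small distances do not show like folds. Ccl20 was 25.4-fold higher in HM_Ctrl than in LM_Ctrl in depth-scaled fragments, with 1 fragment in LM_Ctrl, whereas Irf2bp2 had an FPKM of 53.8 and 25.4 there. The pattern of Ccl2 itself was within counting error. A likeness over 4 libraries is a description only.

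The receptors were read next, from a list of 16 genes of the CC and atypical chemokine receptors. Only 2 of them were expressed. Ccrl2, an atypical receptor that binds chemerin, showed an FPKM of 0.207 in HM_Ctrl against 1.45 in HM_DFX, and 0 in LM_Ctrl against 3.08 in LM_DFX. It was called higher in both clones with log2 values of 1.02 and 2.03, as were 6.93% of all expressed genes in HM and 7.09% in LM. Ccrl2 passed the filter only through the DFX libraries, so it could not be called lower with DFX. Ackr3, an atypical receptor that takes up Cxcl12, showed an FPKM of 13.0 in HM_Ctrl against 6.40 in HM_DFX, and 30.2 in LM_Ctrl against 21.6 in LM_DFX, with log2 values of -0.92 and -0.47 that were not past the threshold. Of the signaling receptors, Ccr2, Ccr4 and Ccr6 were at 0 in all 4 libraries, and Ccr1 reached an FPKM of 0.0492 in HM_DFX.

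The ligands, receptors and sensors that induce CC chemokines were a list of 20 genes, of which 14 were expressed. In HM_DFX 4 were at least 2-fold higher and 2 lower, and in LM_DFX 5 were higher and 2 lower. Over all expressed genes the shares were 6.93% higher and 12.4% lower in HM and 7.09% and 8.72% in LM, so the lower genes of the list in HM, 2 of 14, were near the background. The medians of the list were -0.05 and 0.48, against -0.10 and -0.04 for all expressed genes, and the HM median was 0.08 under median–ratio scaling. The interferon gene Ifnb1 was at 0 in HM_Ctrl with an FPKM of 3.43 in HM_DFX, and at 0.0848 in LM_Ctrl and 3.66 in LM_DFX. It is among the higher genes counted in both clones, but passed the filter only through the DFX libraries, so it could not be called lower with DFX. Ddx58, which encodes the RNA sensor RIG–I, went from 7.41 to 40.2 in HM and from 6.59 to 54.1 in LM. The related sensor gene Ifih1 had log2 fold changes of 1.46 and 2.58, and the adaptor gene Ticam1 of 1.44 and 1.60. Tlr3, a receptor for double–stranded RNA, was called higher in LM (1.64) and had a value of 0.30 in HM. The lower genes were the interleukin 1 receptor chains Il1r1 (-1.23 and -1.64) and Il1rap (-1.32 and -1.02).

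Of 21 genes for transcription factors and their kinases 20 were expressed. In HM_DFX 9 were at least 2-fold higher and 2 lower, and in LM_DFX 7 were higher and 1 lower, beside 6.93% and 12.4% of all expressed genes in HM and 7.09% and 8.72% in LM. The medians were 0.77 and 0.55, against -0.10 and -0.04 for all expressed genes. Among NF–κB subunits, Rela went from an FPKM of 44.0 to 136 in HM and from 34.8 to 132 in LM, and Relb from 5.46 to 23.9 and from 8.38 to 25.7. Nfkb2 (1.13) and Rel (1.20) were called higher in HM, with values of 0.55 and 0.54 in LM. Of the interferon regulatory factors, Irf7 had log2 fold changes of 2.48 and 4.31, Irf5 of 1.16 and 1.67 and Irf1 of 1.02 and 1.31, while Irf3 was called lower in HM (-1.15) and had a value of -0.71 in LM. For the AP–1 genes, Jun was called in both clones (1.67 and 1.01) and Fos in HM (1.77, with 0.60 in LM). Fos passed the filter only through the DFX libraries, so it could not be called lower with DFX. Junb was the 1 gene of the list called lower in LM (-1.57), with a value of 0.59 in HM. Hif1a, the hypoxia–inducible factor subunit, was called lower in HM (-1.15), with -0.81 in LM. No difference between HM and LM in these values was tested.

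The last list held 16 genes, among them inhibitors of NF–κB and factors that destabilize mRNA, but not all are negative regulators. All 16 were expressed, of which 6 were at least 2-fold higher in HM_DFX and 5 in LM_DFX, with none lower in either. Of all expressed genes 6.93% were higher and 12.4% lower in HM, and 7.09% and 8.72% in LM. The medians were 0.78 and 0.22, against -0.10 and -0.04 for all expressed genes. Nfkbia, the inhibitor IκBα and itself an NF–κB target, went from an FPKM of 24.3 to 163 in HM and from 30.4 to 82.1 in LM. Dusp1, a phosphatase of MAP kinases, had log2 fold changes of 2.69 and 2.56, Nfkbib of 2.14 and 1.60, and Nfkbiz of 1.34 and 1.12. The mRNA decay factor Zfp36 had values of 1.68 and 1.23. Tnfaip3, which encodes the deubiquitinase A20, was called only in HM (1.02, with -0.04 in LM).

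**Figure D4:**
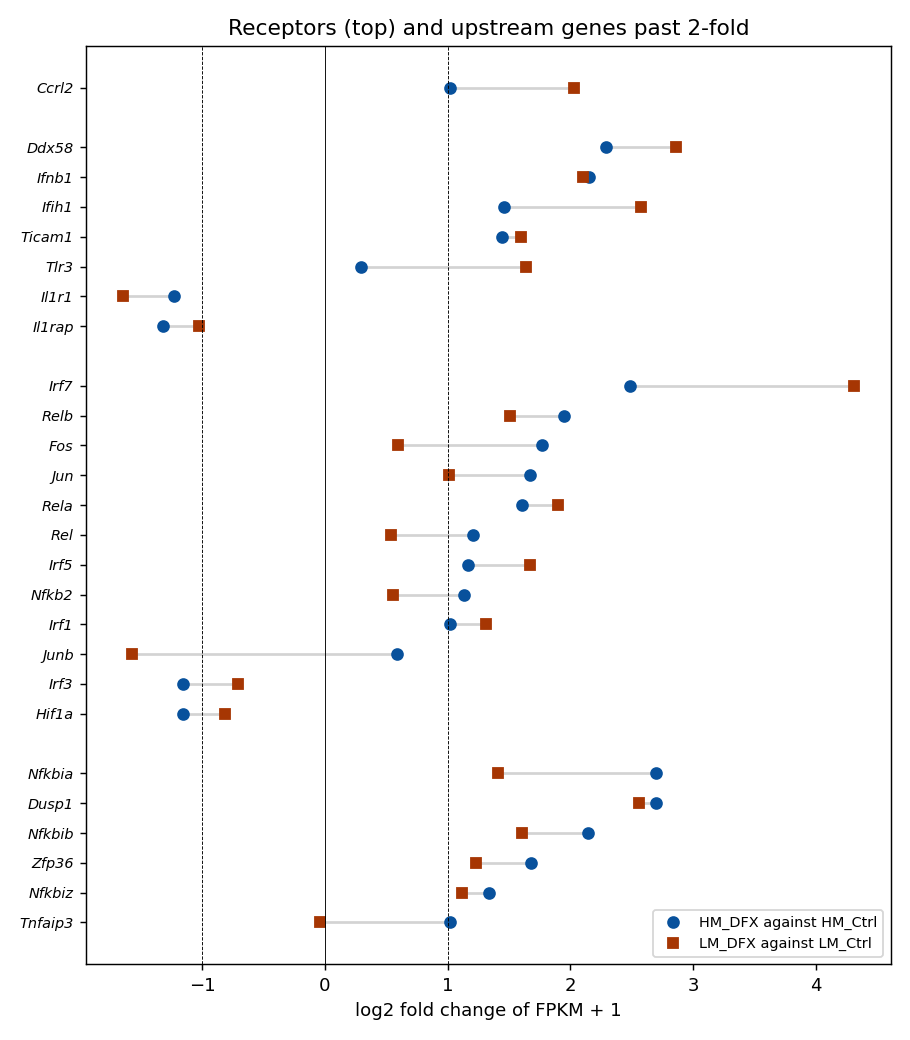
Log2 fold change of FPKM + 1 with DFX for genes named in the text that passed 2-fold in either clone. Blocks from top to bottom are receptor, inducer, transcription factor, and signaling and mRNA regulator genes. HM is shown as circles, LM as squares, and dashed lines mark 2-fold. Irf7 reaches 4.31 in LM, Nfkbia 2.70 in HM, and Junb lies on opposite sides of 0.

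Markers of the labelled cells and of other cells were checked beside these values, since leukocytes are a usual source of Ccl4 and Ccl5. Of 10 epithelial markers, 8 or 9 showed an FPKM of at least 1 in each library, with Krt5 at 0 in all. Their summed FPKM, in which Krt8 and Krt18 were the largest, was lower with DFX in both clones (1788 to 577 in HM and 2341 to 1115 in LM). At least 2-fold lower were 6 of the 9 expressed markers in HM and 3 in LM, beside 12.4% and 8.72% of all expressed genes. Under median–ratio scaling the lower markers were 4 in HM and 3 in LM, beside 10.1% and 7.97%. Krt19 went the other way in LM, from 46.4 to 103, the 1 marker called higher there, where 7.09% of all expressed genes were. The leukocyte marker Ptprc was at 0 in both HM libraries and showed an FPKM of 0.0139 in LM_Ctrl and 0.0025 in LM_DFX, and none of the 4 leukocyte markers reached an FPKM of 1, with sums of at most 0.150. Of 12 macrophage and monocyte markers, 5 to 7 were at 0 in each library, among them Adgre1, C1qa, C1qb and C1qc in all 4. Their summed FPKM was nevertheless higher with DFX, at 25.7 and 44.5 in HM and 20.5 and 88.9 in LM. That sum came mostly from Cd68, a lysosomal protein gene that other cells also express, which went from 12.9 to 37.4 in HM and from 12.3 to 83.1 in LM, and from Cd14, which had 12.4, 5.58, 8.09 and 4.19 in HM_Ctrl, HM_DFX, LM_Ctrl and LM_DFX. Mrc1 passed an FPKM of 1 in the DFX libraries alone (1.20 in HM_DFX and 1.54 in LM_DFX). No marker of dendritic cells, neutrophils, T and NK cells, B cells or endothelium reached an FPKM of 1. Of 7 fibroblast markers, Pdgfra did in all 4 libraries (2.77 to 5.50), and the other 6 did not. The part of these markers in the chemokine values was not tested.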

How the data were processed

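RNA of each clone and treatment was measured as 1 poly(A)–selected, directional library, so no replicate error and no p-value can be given. Per the labels the reads were processed with FastQC, Trimmomatic, HISAT2 and featureCounts on mm10. Tool versions and the use of strand in counting are not given in the sources used here. The values used are FPKM as the authors deposited them, and no deposited column was left unused. The study names edgeR, which was not run here.

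Fold changes are log2 ratios of FPKM + 1 among genes that reached an FPKM of 1 in any library, called at 2-fold. Whole fragments were recovered with GENCODE M21 exon lengths. Of 18235 genes above 0 with equal coordinates, 96.8% gave whole numbers in all 4 libraries (tolerance 0.02). They served for depth and counting error only, as exact Poisson intervals for levels and exact conditional (Clopper–Pearson) intervals for folds, at 95%. The scripts were tested on simulated data. The members, gene lists and markers were chosen with earlier results of these data known.

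The text names the 8 genes, genes of the lists called in either DFX comparison, other CC chemokines and receptors that reach an FPKM of 1, and the 3 genes nearest in pattern to each expressed member. Exceptions are marked where they occur. Pseudocounts, filters, thresholds and scalings were varied. A planned comparison of the proteins was not run here. Some genes of the lists are counted but not reported here by name. Python 3.11.15 with pandas 2.3.3, numpy 2.4.6, scipy 1.17.1 and matplotlib 3.10.9 was used.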

Additional observations from a re-analysis of the deposited data

Results flagged for a closer look

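Junb, an AP–1 gene, went in opposite directions with DFX in the clones, each beyond counting error. In HM its FPKM was 70.6 without and 107 with the drug, in LM 137 without and 45.3 with it, with log2 fold changes of 0.59 and -1.57, a gap of 2.16. The difference was not tested, since each group has 1 library.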

How the results depend on the processing

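Of 70 counts of CC chemokines recomputed under alternatives, 62 stayed within 1.5 times the value reported. Most of the reported counts were 0 and stayed so, and Ccl4 and Ccl5 were named with their large folds known. The agreement was thus largely set in advance and says little on its own. With DFX 2 genes were higher in HM under every alternative run. In LM 3 were higher with a pseudocount of 0.1 and at 1.5-fold, against 2 reported, the gained gene being Ccl20, whose log2 value of 0.86 became 2.79 with a pseudocount of 0.1. That pseudocount also moved Ccl4 in LM from 5.96 to 9.26. Of 62 fold values 61 kept their sign, the exception being Ccl5 between the untreated clones, near 0. Higher in HM_Ctrl than in LM_Ctrl were 2 genes with a pseudocount of 0.1 and 2 at a threshold of 1.5-fold, and 0 with a mean FPKM of at least 1 as the filter and 0 at 4-fold, against 1 reported. Higher in HM_DFX than in LM_DFX was 1 gene with a pseudocount of 0.1 and 1 at 1.5-fold, against 0. A lower DFX response in HM was found for 2 genes with a pseudocount of 0.1 and 1 at 1.5-fold, against 0. These counts concern Ccl20 and Ccl4, which were near or at 0 in LM_Ctrl. For them the reported and the alternative counts alike depend on the pseudocount, filter and threshold chosen. An alternative chosen after seeing the data, the depth-scaled fragments with no pseudocount, gave a log2 fold change of 6.52 for Ccl4 in HM against 5.29, and of 4.33 for Ccl20 in LM. Under median–ratio scaling the log2 value of Ccl5 in HM_DFX against LM_DFX was -0.42 against -0.50. No paired analysis was possible because each group has 1 library. Leaving out a library was not possible for the same reason. Depth limits Ccl3, Ccl7 and Ccl17 most, with at most 3 fragments in a library.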

Other observations

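Of the other 15 CC chemokines matched in the table, Ccl25, which attracts Ccr9–bearing thymocytes and gut T cells, was the only 1 expressed. Its FPKM was 0.810 in HM_Ctrl against 1.77 in HM_DFX, and 0.734 in LM_Ctrl against 1.12 in LM_DFX, from 101, 189, 86 and 182 fragments. Ccl25 passed the filter only through the DFX libraries. With DFX the depth-scaled fragments were 2.18-fold higher in HM (interval 1.70 to 2.81) and 1.52-fold higher in LM (interval 1.17 to 1.99), with log2 values of 0.61 and 0.29 on FPKM + 1 that did not pass the threshold.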
